A study of Drosophila melanogaster with 8 samples.

Results

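Ribosome biogenesis factors are the proteins that transcribe ribosomal RNA, modify and cut it, and fold it with ribosomal proteins into the small and large subunits. The 41 genes described here were chosen by name as a group of such factors of the fruit fly, with earlier results of these data known although the rule itself used no measured value, and all 41 were found among the 17562 genes of the tables. They were measured by poly-A RNA-seq in thoraces of adult males, 8 libraries in all, and the study used these flies to ask what the transcription factor REPTOR does in adult muscle. REPTOR is a bZIP factor that the growth kinase complex TORC1 keeps out of the nucleus, and REPTOR[ACT] is an activated form of it.

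The REPTOR[ACT] group (4 libraries) came from tub-Gal80ts; dMef2-GAL4 flies crossed to UAS-REPTOR[ACT], and the control group (4 libraries) from the same driver line crossed to w[1118]. Both groups therefore carried dMef2-GAL4, which drives transgenes in all muscles, and a ubiquitous temperature-sensitive GAL80 that holds GAL4 silent in the cold. The labels place the crosses at 18 °C, the adult males at 18 °C for a further 3 to 4 days and then at 29 °C for 4 days, and give 5 to 6 thoraces per library. For the stay of the adult males at 18 °C the study's general methods instead give 4 to 5 days. Nothing states that the libraries of a group came from separate crosses, so p-values measure the spread between these libraries, which may be technical. A thorax also holds fat body, trachea, nerves and blood cells, and in such bulk samples fewer cells of a type and less RNA per cell cannot be told apart.

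In eukaryotic cells RNA polymerase I copies the rDNA repeats into a long precursor in the nucleolus. Small nucleolar ribonucleoproteins (snoRNPs) guide its methylation (box C/D class) and pseudouridylation (box H/ACA class), a processome cuts out the small subunit RNA, and GTPases, helicases and assembly factors mature the large subunit until an adaptor carries it out of the nucleus. In flies and mammals these genes are known for following growth signals, with TORC1 and Myc as the best known activators.

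The REPTOR[ACT] libraries held 29.07 to 42.74 M reads (M, 1e6) and the control libraries 26.79 to 50.03 M reads. Levels are given as CPM, reads per 1e6 after TMM scaling. Before that scaling 3 reads, as many as a count of 0 can hide, come to 0.0600 to 0.112 CPM for counting error alone. No member had fewer than 92 reads in any library. REPTOR itself, transgene and endogenous reads together, had 270 to 337 CPM in REPTOR[ACT] thoraces and 92.5 to 132 CPM in control thoraces. In a principal component analysis the first axis held 67.5% of the variance and separated the genotypes, and the second (11.2%) set replicates 1 and 2 of both genotypes apart from replicates 3 and 4. Of 10 muscle markers 5 were higher and 1 lower in REPTOR[ACT], with Mhc and Act88F abundant, and their summed level was 2.62e+04 to 2.68e+04 CPM against 1.65e+04 to 1.80e+04 CPM in control.

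Transcripts for making ribosomes were more abundant in the REPTOR[ACT] thoraces at nearly every step of the pathway. The 41 genes summed to 2148, 2066, 2082 and 2115 CPM in the REPTOR[ACT] libraries, against 837, 918, 957 and 984 CPM in the control libraries. The groups did not overlap, and their means were 2103 ± 36.4 CPM and 923.9 ± 64.2 CPM (SD, n = 4 each). RpL24-like and Non1 made up 50.3 to 55.9% of the sum in REPTOR[ACT] and 38.6 to 44.7% in control. The other 39 genes together still had 932 to 1067 CPM in REPTOR[ACT] and 513 to 554 CPM in control.

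Gene by gene, all 41 passed the filter on low counts, 40 rose (adjusted p under 0.05 in edgeR's quasi-likelihood test, adjusted by Benjamini-Hochberg over all 9903 genes tested), 0 fell and 1, CG12301, was not called. All 41 log2 fold changes were above 0, also in DESeq2 and limma-voom. Over all genes tested 24.8% were called higher and 19.4% lower by this rule. A log2 fold change over 1 as well, the fold limit that the study used, was reached by 16 of the 41 (39.0%), against 4.83% of all genes. For 39 of the 41 every REPTOR[ACT] library lay above every control library, a pattern that 23.6% of all genes showed, and the exceptions were CG12301 and CG4364. The median log2 fold change was 0.88 (quartiles 0.58 and 1.16), against −0.0090 over all genes. The lowest member, CG4364, still stood at the 76.2 percentile of all log2 fold changes, and 26 members stood above the 90th percentile.

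**Figure D1:**
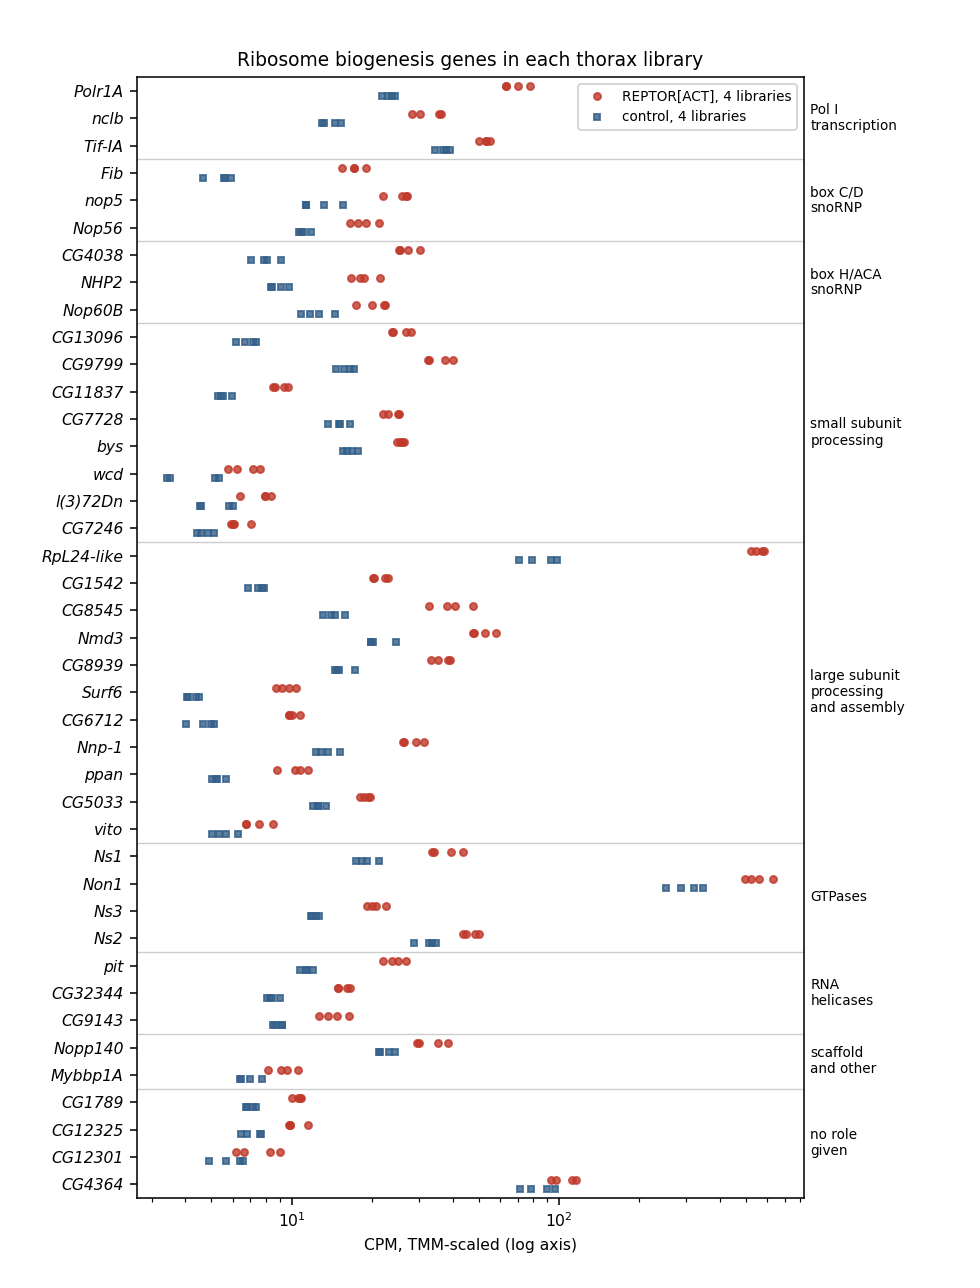
Level of each of the 41 genes in each library (TMM-scaled CPM, log axis), with REPTOR[ACT] libraries as circles above control libraries as squares, grouped by role. The symbols of the genotypes separate in 39 of 41 genes and overlap in CG12301 and CG4364.

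Transcription of the ribosomal RNA comes first in the pathway. Polr1A, the largest subunit of RNA polymerase I (FBgn0019938, chromosome arm 2R, 14595611 to 14601216), had 77.9, 63.5, 70.0 and 63.5 CPM in REPTOR[ACT] libraries, against 21.8, 23.8, 24.3 and 23.0 CPM in control libraries. The lowest REPTOR[ACT] value was well over the highest control value, and the log2 fold change was 1.56 (SE 0.0775, edgeR adjusted p = 6.2e-08). For nclb, the fly PWP1, a chromatin protein that promotes rDNA transcription, the REPTOR[ACT] libraries gave 36.3, 28.1, 35.5 and 30.2 CPM and the control libraries 12.9, 13.2, 15.3 and 14.5 CPM. It too separated without overlap (log2 fold change 1.22, SE 0.0960, adjusted p = 1.7e-06). Tif-IA, the initiation factor that links growth signals to RNA polymerase I, rose less, at 50.2 to 55.0 CPM in REPTOR[ACT] and 34.4 to 39.1 CPM in control (log2 fold change 0.52, SE 0.0594, adjusted p = 3.0e-05).

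Proteins of the modification machinery rose to unequal degrees within a complex. Fibrillarin, Fib, the methyltransferase of box C/D snoRNPs (FBgn0003062, 2R, 23072909 to 23074725), had 19.0, 17.03, 17.1 and 15.4 CPM in REPTOR[ACT] and 4.67, 5.95, 5.55 and 5.60 CPM in control. Its log2 fold change was 1.65 (SE 0.0949, adjusted p = 1.8e-07). The scaffold protein Nop56 of the same particle had 18.9, 16.6, 21.2 and 17.7 CPM in REPTOR[ACT] against 10.7, 11.8, 10.8 and 11.1 CPM in control (0.74, SE 0.0846, adjusted p = 2.8e-05). The partner scaffold nop5 lay between them at 0.98 (SE 0.111), with 21.9 to 27.1 CPM in REPTOR[ACT] and 11.3 to 15.6 CPM in control.

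In the box H/ACA particle the largest difference was in CG4038, the fly Gar1 (FBgn0011824, 2R, 21095958 to 21097305). CG4038 had 30.1, 25.2, 27.1 and 25.4 CPM in REPTOR[ACT] and 7.02, 8.08, 7.87 and 9.12 CPM in control, a log2 fold change of 1.75 (SE 0.0926, adjusted p = 1.0e-07). NHP2, an RNA-binding core protein, had 21.3, 18.0, 18.6 and 16.6 CPM in REPTOR[ACT] and 8.43, 9.10, 9.74 and 8.36 CPM in control (1.07, SE 0.0896, adjusted p = 2.7e-06). Nop60B, the pseudouridine synthase itself, known as dyskerin in mammals, had 17.5 to 22.3 CPM in REPTOR[ACT] and 10.9 to 14.5 CPM in control (0.72, SE 0.105, adjusted p = 0.00020). The remaining core protein, CG7637, the fly NOP10, is not among the 41 and was added here after its values were seen. It had 7.79 ± 0.43 CPM in REPTOR[ACT] and 3.65 ± 0.53 CPM in control (1.10, SE 0.110, adjusted p = 1.0e-05), so that the catalytic protein had the smallest value of the particle. Ratios to CG7637 were not tested.

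Whether such differences within a complex exceeded the spread between libraries was tested on ratios of reads within a library. The family held 10 ratios, all pairs within the box C/D, box H/ACA and RNA polymerase I groups and 1 pair of paralogues, and it was set up after the values were seen. In each ratio the gene with the larger log2 fold change was put first, so the common direction of the differences follows from that order. The Fib to Nop56 ratio was −0.12 ± 0.17 on the log2 scale in REPTOR[ACT] and −1.03 ± 0.11 in control (SD, n = 4 each, exact permutation test, two-sided p = 0.0286, adjusted over the family 0.0317). For CG4038 to Nop60B the log2 ratio was 0.40 ± 0.11 in REPTOR[ACT] and −0.63 ± 0.28 in control, and for Polr1A to Tif-IA it was 0.37 ± 0.13 in REPTOR[ACT] and −0.67 ± 0.03 in control, with the same p. In 9 of the 10 ratios the genotypes did not overlap, which gives 0.0286, the smallest p that 4 libraries against 4 allow. For NHP2 to Nop60B the separation was narrow, from −0.258 in the lowest REPTOR[ACT] library to −0.267 in the highest control library. The nop5 to Nop56 ratio overlapped, with a difference of 0.25 (SE 0.12, exact p = 0.143), since replicates 1 and 2 lay above replicates 3 and 4 in both genotypes. Between libraries of the same number its differences were 0.18, 0.25, 0.29 and 0.28, all in favour of nop5 in REPTOR[ACT]. The test did not use these numbers, and its p does not show that the scaffolds moved alike.

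**Figure D2:**
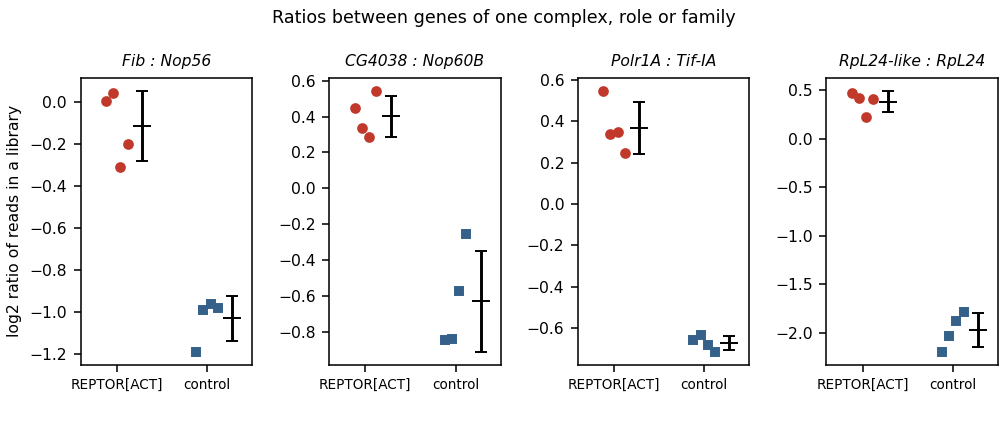
Log2 ratio of reads between genes of a complex, role or family in each library, REPTOR[ACT] as circles and control as squares, with the mean and SD of each group beside the points. In all 4 panels the REPTOR[ACT] libraries lie above the control libraries, by the widest margin for RpL24-like to RpL24. The direction was set by putting the gene with the larger log2 fold change first.

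Small subunit factors rose in all 8 cases but mostly by less than the fold limit, with a median log2 fold change of 0.64. The 2 past the limit were CG13096 and CG9799. CG13096, the fly UTP30, in yeast a protein of early small subunit precursors (FBgn0032050, 2L, 8509069 to 8511866), had 27.9, 23.8, 26.7 and 23.9 CPM in REPTOR[ACT] and 6.69, 6.18, 7.15 and 7.32 CPM in control. Its log2 fold change of 1.91 (SE 0.0842, adjusted p = 2.7e-08) was the second largest of the 41. CG9799, annotated as a WD-repeat protein of the small subunit processome, had 40.3, 32.4, 37.3 and 32.6 CPM in REPTOR[ACT] against 15.7, 14.7, 17.1 and 16.5 CPM in control (1.16, SE 0.0865, adjusted p = 1.2e-06). Bystin, bys, needed for a late cut of the small subunit precursor, had 25.9, 26.3, 25.4 and 24.8 CPM in REPTOR[ACT] and 17.6, 16.03, 15.6 and 16.8 CPM in control (0.63, SE 0.0628, adjusted p = 9.8e-06). The other 5 ran from 0.40 to 0.70, namely CG11837, the fly Dim1 dimethyltransferase (0.70), CG7728, the GTPase BMS1 (0.65), wcd, a protein associated with the U3 snoRNP (0.61), l(3)72Dn, the fly UTP4 (0.54), and CG7246, the fly UTP6 (0.40). In wcd and l(3)72Dn the replicates spread more widely, and the SE was 0.160 and 0.123.

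The genes grouped here as large subunit factors made up 8 of the 16 genes past the fold limit, with 11 of 11 higher and a median of 1.15. Assembly GTPases, helicases and genes with no role given here were grouped apart, although some of them also serve the large subunit. RpL24-like, which in yeast joins the early large subunit precursor and is replaced by ribosomal protein L24 in the cytoplasm, led all 41 (FBgn0037899, 3R, 11430740 to 11431582). It had 586, 577, 522 and 549 CPM in REPTOR[ACT] and 70.9, 79.3, 98.6 and 93.4 CPM in control. The lowest REPTOR[ACT] library was 5.29 times the highest control library, and the log2 fold change of 2.71 (SE 0.103, edgeR adjusted p = 1.0e-08) ranked 52 of 9903. RpL24-like is also in a list of genes that the study drew partly from these libraries, so its value is not independent evidence.

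RpL24, the ribosomal protein that takes its place on the mature subunit, had 428.5 ± 15.1 CPM in REPTOR[ACT] and 333.0 ± 19.1 CPM in control (log2 fold change 0.36, SE 0.0605, adjusted p = 0.00050). The log2 ratio of RpL24-like to RpL24 was 0.38 ± 0.11 in REPTOR[ACT] and −1.97 ± 0.18 in control, among the 9 non-overlapping ratios. Per kilobase of exon, RpL24-like was at 722 and RpL24 at 339 reads per kilobase and 1e6 reads (RPKM) in REPTOR[ACT], against 111 and 263 RPKM in control. The order of the paralogues by level was thus opposite in the genotypes. Reads that fit both paralogues, if any, could have been counted for either. RpL24-like also shares 23 exon bases, 2.98% of its own, with Dtd on the opposite strand, a gene with 35.3 CPM in REPTOR[ACT] and 2.99 CPM in control.

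CG1542, the fly EBP2, a nucleolar assembly protein, was second among the large subunit factors. Its levels were 23.0, 22.4, 20.3 and 20.1 CPM in REPTOR[ACT] and 7.85, 7.76, 6.85 and 7.49 CPM in control (log2 fold change 1.52, SE 0.0763, adjusted p = 6.8e-08). Next by size came CG8545, the rRNA methyltransferase NOP2 (1.47), Nmd3, the export adaptor of the large subunit (1.29), CG8939, the methyltransferase Spb1 (1.25), and Surf6, a nucleolar rRNA processing protein (1.15). CG6712, the fly RPF1 (1.10), and Nnp-1, the fly RRP1 (1.06), also passed the fold limit. The other 3 fell short of it, namely ppan, the fly SSF1, named peter pan after larvae that fail to grow (0.97), CG5033, the fly BOP1 (0.58), and vito, the fly homologue of the nucleolar RNA-binding protein NOL12.

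Among the genes grouped here as large subunit factors the smallest change was that of vito. It had 8.52, 7.53, 6.72 and 6.71 CPM in REPTOR[ACT] and 5.04, 5.70, 5.33 and 6.301 CPM in control. Its groups did not overlap, but only narrowly (log2 fold change 0.40, SE 0.106, adjusted p = 0.0099), and with replicates 3 and 4 alone the value was 0.19 (adjusted p = 0.28).

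**Figure D3:**
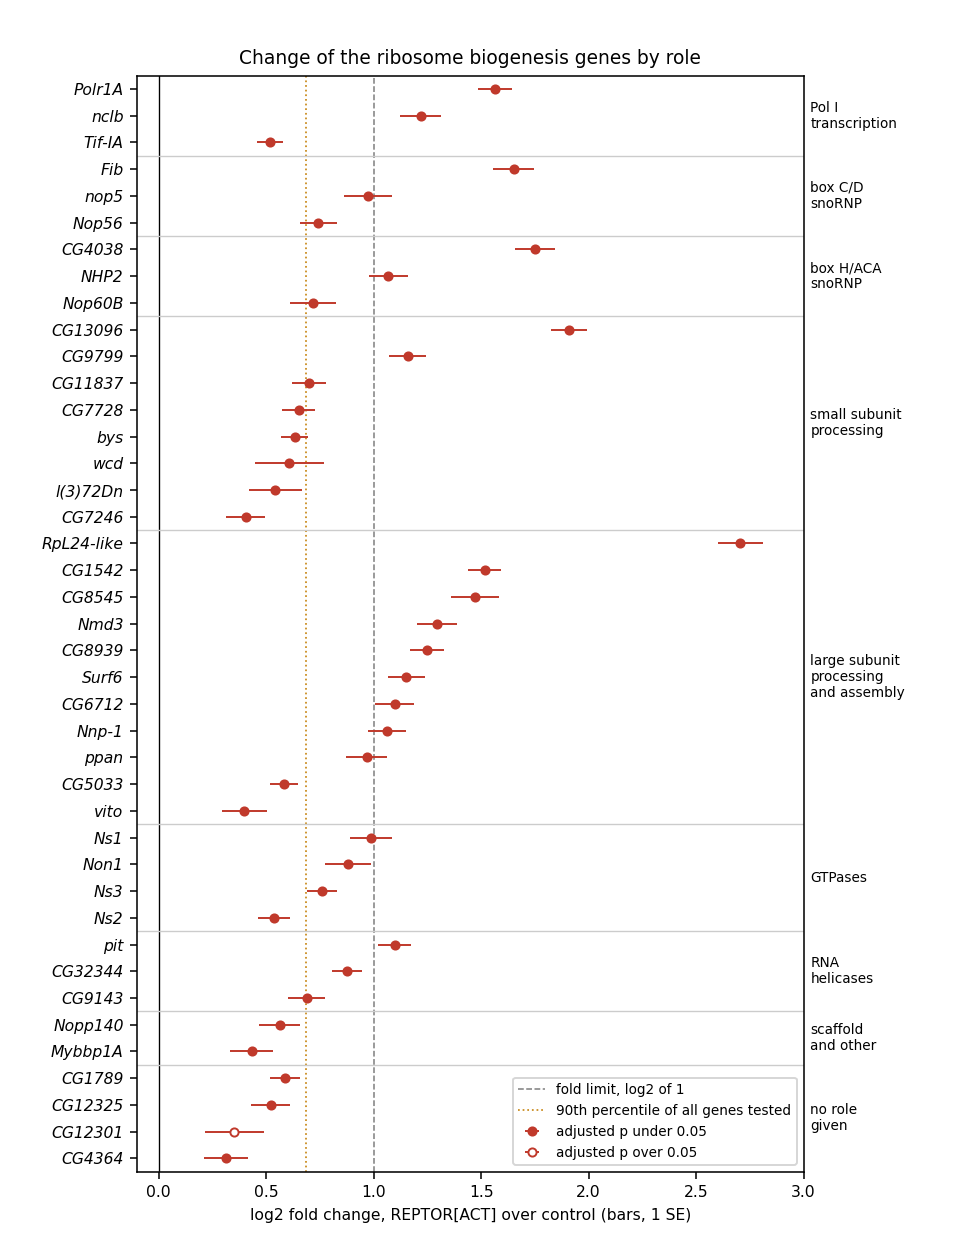
Log2 fold change (REPTOR[ACT] over control, horizontal axis, bars of 1 SE) of the 41 genes by role, with dashed and dotted lines at the fold limit and at the 90th percentile of all genes tested (0.69). The genes grouped here as large subunit factors reach from vito at 0.40 to RpL24-like at 2.71, and the open symbol is CG12301, the gene not called.

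The 4 assembly GTPases rose with a median of 0.82, none of them past the fold limit. Ns1, the fly nucleostemin, had 43.9, 39.3, 34.1 and 33.5 CPM in REPTOR[ACT] and 19.1, 21.2, 17.5 and 18.3 CPM in control (0.99, SE 0.0971, adjusted p = 9.2e-06). Its relative Ns3 had 22.5, 20.02, 19.2 and 20.6 CPM in REPTOR[ACT] and 12.3, 11.9, 12.7 and 11.8 CPM in control (0.76, SE 0.0694, adjusted p = 5.2e-06). The third of the family, Ns2, changed by 0.53 (SE 0.0742). Non1, a GTPase of large subunit maturation, was the most abundant member in control thoraces per length, at 132 RPKM, and reached 243 RPKM in REPTOR[ACT]. It had 495, 524, 562 and 634 CPM in REPTOR[ACT] against 252, 285, 320 and 346 CPM in control (0.88, SE 0.106, adjusted p = 5.0e-05), with replicates 3 and 4 above replicates 1 and 2 in both genotypes.

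RNA helicases unwind snoRNA and precursor RNA duplexes during assembly. The helicase pit, the fly DDX18, had 26.8, 24.9, 23.8 and 21.9 CPM in REPTOR[ACT] and 11.3, 11.98, 11.4 and 10.8 CPM in control (1.10, SE 0.0766, adjusted p = 7.3e-07). CG32344, known also as the helicase DmRH20, had 16.4, 16.1, 14.8 and 14.9 CPM in REPTOR[ACT] and 8.28, 9.04, 8.44 and 8.10 CPM in control (0.88, SE 0.0705, adjusted p = 2.0e-06). Both were tight within groups. CG9143, known also as DmRH13, changed by 0.69 (SE 0.0869), and shares 157 exon bases with CG11788 on the other strand.

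Nopp140, a nucleolar chaperone of snoRNPs, had 38.5, 29.9, 35.3 and 29.5 CPM in REPTOR[ACT] and 23.2, 24.4, 21.4 and 21.1 CPM in control (0.56, SE 0.0938, adjusted p = 0.00051). Mybbp1A, a nucleolar Myb-binding protein, had 10.5, 9.61, 9.09 and 8.12 CPM in REPTOR[ACT] and 6.96, 7.76, 6.47 and 6.42 CPM in control (0.43, SE 0.0994, adjusted p = 0.0042). At 1.88 RPKM Mybbp1A was the least abundant member per length in control thoraces.

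The smallest changes were among 4 genes to which no role is given here. CG1789 had 10.8, 10.8, 10.1 and 10.5 CPM in REPTOR[ACT] and 7.15, 6.74, 6.81 and 7.38 CPM in control (log2 fold change 0.59, SE 0.0698, adjusted p = 3.9e-05). CG12325 had 11.5, 9.82, 9.83 and 9.74 CPM in REPTOR[ACT] and 6.44, 7.58, 7.68 and 6.82 CPM in control (0.52, SE 0.0889, adjusted p = 0.00060), and 215 of its exon bases overlap CG12344 on the opposite strand. Neither overlapped between the genotypes.

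CG12301 had 9.03, 8.29, 6.18 and 6.60 CPM in REPTOR[ACT] and 6.38, 6.55, 4.91 and 5.69 CPM in control. The groups overlapped, since replicates 3 and 4 were lower than replicates 1 and 2 in both genotypes, and the call was missed (0.35, SE 0.136, adjusted p = 0.056). Deviations of same-numbered libraries correlated over the genes tested, but REPTOR[ACT] replicate 4 correlated more with a control library of another number (r = 0.221 against 0.137). With the replicate number as a block CG12301 passed (adjusted p = 0.0048), which made 41 of 41 called. CG4364 had 93.6, 97.7, 112 and 116 CPM in REPTOR[ACT] and 71.7, 78.8, 89.8 and 96.6 CPM in control, with replicates 3 and 4 the higher ones in both genotypes. Its overlapping groups gave the smallest log2 fold change of the 41 (0.31, SE 0.102, adjusted p = 0.027), and that call was lost without REPTOR[ACT] replicate 3 (adjusted p = 0.067) or 4 (0.076) and without control replicate 1 (0.075) or 2 (0.062). Set against the control library of its own number, each REPTOR[ACT] library was the higher one for every member, in 164 of 164 comparisons. The smallest was a log2 ratio of 0.091, in vito. For the 39 genes whose groups did not overlap this outcome was fixed under any matching of libraries. Only CG12301 and CG4364 add to it, with smallest log2 ratios of 0.21 and 0.26.

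Among themselves the members kept much of their order by level. The median was 10.4 RPKM in REPTOR[ACT] and 5.04 RPKM in control, and log2 RPKM correlated between the genotypes across the 41 genes (Pearson r = 0.95). The log2 fold change was weakly related to log2 RPKM in control (Pearson r = 0.27, Spearman rho = 0.17 across 41 genes), which share the same libraries and are no independent replicates. Both are descriptions with no test.

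The genes had some features in common beyond their function. Per the annotation of assembly BDGP6.54, 4 of 41 (9.76%) enclose snoRNA genes on the same strand, namely Nop60B with 7 and Fib, nop5 and pit with 1 each, against 84 of 9395 tested protein-coding genes (0.894%). Of all 84 host genes, these 4 included, 53 were higher and 5 lower with a median of 0.34, and of the 51 that are neither members nor ribosomal protein genes 23 were higher and 5 lower with a median of 0.14. The part of hosting in the members' levels was not tested. Few exonic blocks were common, with 25 of 41 (61.0%) at 3 or fewer, against 41.1% of the tested coding genes. Total exon length was ordinary, at a median of 2140 bases against 2164, and the members lay on all large arms, 12 on 2R, 9 on 3R, 7 on 3L, 6 on 2L and 7 on X. Exons of 11 members overlap a gene on the opposite strand, by at most 6.3% of the member's bases, and no source used here says whether counting used strand. On the same strand Surf6 shares 25 exon bases, 2.17% of its own, with ClpX, a gene with 357 CPM in REPTOR[ACT] and 278 CPM in control.

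Of 35 other biogenesis factors outside the 41, 34 rose and 0 fell, 13 past the fold limit, with a median of 0.95. The extremes were CG4866 (1.31) and CG11920 (1.22) at the top, and CG2972, the fly NOB1 nuclease that makes the last small subunit cut (0.32), and CG8611, known also as DmRH11, at the bottom. CG8611 had 6.40 ± 0.41 CPM in REPTOR[ACT] and 6.19 ± 0.51 CPM in control (0.04, adjusted p = 0.72), the 1 factor in the list that was not called.

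The lists of polymerase subunits differed in their medians. Of 6 further RNA polymerase I subunits 5 rose and 0 fell (median 0.78). Polr1E, the fly RPA49, had the largest change, at 20.5 ± 1.51 CPM in REPTOR[ACT] and 6.97 ± 0.67 CPM in control (1.56), close in size to Polr1A, followed by Polr1B, the second largest subunit (0.95). Polr1C, shared with RNA polymerase III, changed by 0.62, and Polr1F, the fly RPA43, was not called at 5.30 ± 0.69 CPM in REPTOR[ACT] and 5.15 ± 0.55 CPM in control (0.05, adjusted p = 0.77).

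For RNA polymerase III, which makes 5S rRNA and tRNA, 4 of 9 tested subunits rose and 0 fell (median 0.28), from Polr3C (0.96) and Polr3F (0.34) to Polr3B (0.11) and Polr3D (0.09), neither of the last pair called. In the RNA polymerase II list, which includes subunits common to RNA polymerases I, II and III, 5 of 11 rose and 0 fell (median 0.22). Polr2F (0.77) and Polr2E (0.50) led that list and are such common subunits, as is Polr2H (0.42). Polr2C (−0.02) and Polr2G (−0.02) were lowest and not called. Polr3K and Polr2D had 0 reads in every library and were left out of the tests, and the reason for their lack of reads was not tested. The differences between these lists were not tested.

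In the RNA exosome, which trims rRNA precursors and degrades by-products, 9 of 11 rose and 0 fell (median 0.60). The largest were the core subunits Rrp40 (1.08) and Rrp46 (1.04), while the nuclease Dis3 (−0.02) and the core subunit Rrp45 (0.14) were not called. Genes of the cytosolic ribosomal proteins themselves, the parts that these factors assemble, rose in 76 of 83 with 0 lower and 0 past the fold limit (median 0.45). The largest were RpL34b (0.73) and RpL32 (0.71), and RpL15 (0.06) and the scarce RpS5b, at 0.20 ± 0.14 CPM in REPTOR[ACT] and 0.39 ± 0.11 CPM in control (−0.97, adjusted p = 0.085), were lowest and not called. Mitochondrial ribosomal protein genes went both ways, 28 of 69 higher and 18 lower with a median of 0.12, from mRpL28 (0.97) and mRpL55 (0.87) to mRpS7 (−0.93) and mRpL27 (−0.99).

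**Figure D4:**
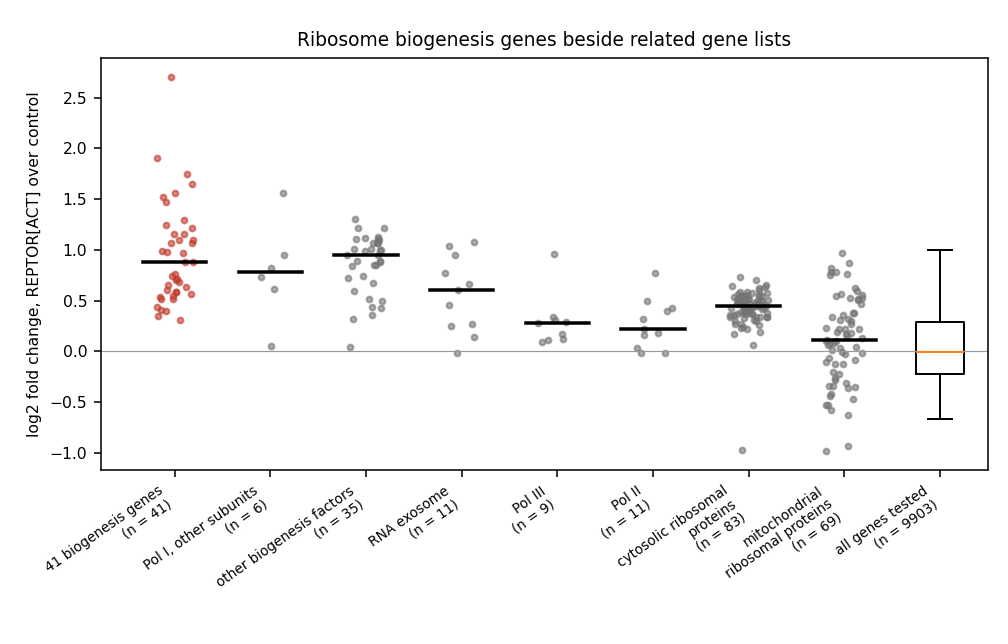
Log2 fold change (REPTOR[ACT] over control, vertical axis) of the 41 biogenesis genes and of related lists, 1 point per gene with the list's median as a bar, and all 9903 genes tested as a box (quartiles and median) with whiskers at the 5th and 95th percentiles (−0.67 and 1.001). The medians run from 0.95 and 0.88 for biogenesis factors to 0.22 for RNA polymerase II, 0.12 for mitochondrial ribosomal proteins and −0.0090 for all genes.

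Myc, the transcription factor best known for switching these genes on in growing fly tissue, had 107, 149, 119 and 92.5 CPM in REPTOR[ACT] and 69.6, 92.6, 75.1 and 78.8 CPM in control. Its groups overlapped at 1 point, 92.5 against 92.6 CPM, with a log2 fold change of 0.56 (SE 0.144, edgeR adjusted p = 0.010). Its partner Max (0.09, adjusted p = 0.28) and the antagonist Mnt (−0.16, adjusted p = 0.61) were not called. The part of Myc in the members' levels was not tested.

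Markers of other thorax cells were set beside these values. Summed levels in REPTOR[ACT] and in control were 4370 to 6341 and 3895 to 5417 CPM for 7 fat body genes, 430 to 528 and 506 to 571 CPM for 5 hemocyte genes, 682 to 784 and 728 to 843 CPM for 6 neuron genes, 40.0 to 55.6 and 36.9 to 48.2 CPM for 4 tracheal genes, and 159 to 187 and 141 to 277 CPM for 5 epidermal genes. By the test 1 of 5 fat body genes was higher, 1 of 5 hemocyte genes higher and 1 lower, 1 of 6 neuron genes lower, 0 of 4 tracheal genes called and 2 of 3 epidermal genes lower. The higher ones were Ilp6 in the fat body list, at 31.1 ± 5.84 CPM in REPTOR[ACT] and 17.9 ± 2.12 CPM in control (0.79), and NimC1 in the hemocyte list, at 36.6 ± 6.17 CPM in REPTOR[ACT] and 20.1 ± 2.06 CPM in control (0.87), and neither overlapped between the genotypes. The lower hemocyte gene was Hml, at 314.5 ± 31.6 CPM in REPTOR[ACT] and 382.4 ± 21.9 CPM in control (−0.28), without overlap. The lower epidermal genes were grh (−0.22) and Cpr47Ea (−1.38), also without overlap, and the lower neuron gene was nSyb (−0.19), whose groups overlapped. The sums overlapped in every list, but a few abundant genes carry them, such as apolpp and FASN1 for fat body. Markers of gut (0.382 to 1.73 CPM in REPTOR[ACT] and 0.897 to 1.67 CPM in control) and of germ line, whose tissues are rich in ribosome biogenesis, were near 0, with the germ line list at 0.282 to 0.486 CPM in REPTOR[ACT] and 0.146 to 0.348 CPM in control. The muscle markers named above did differ in their sum, but not in every gene. The part of muscle and of the other cell types in the members' levels was not tested.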

How the data were processed

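Thorax RNA was measured in 4 REPTOR[ACT] and 4 control libraries, grouped by the genotype label. The 41 genes, their roles and all lists were chosen with earlier results of these data known. The authors, by their methods, prepared poly-A libraries, sequenced each in 4 pools, aligned reads with STAR to the FlyBase genome and tested with DESeq2; the labels instead name a mouse build, which cannot be the one used for fly reads. How reads were counted per gene (tool, strand, reads matching several genes) is not given in these sources.

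The deposited values are estimated counts per gene, not scaled for depth, in steps of 0.25; multiplied by 4 they were whole (100% within 1e-06) and were used as reads. The deposited totals were 6.70 to 12.51 M (M, 1e6). The 9903 genes kept by filterByExpr (minima of 10 reads at median depth and 15 in total) were fitted in edgeR 4.0.16 (R 4.3.3) by robust quasi-likelihood after TMM scaling, with no covariate. Each SE is the absolute log2 fold change over the root of its F statistic. RPKM values used exon lengths of BDGP6.54. Ratios between genes were tested by exact permutation in scipy 1.17.1. Members of each role with the 2 smallest adjusted p, the 3 largest and the 3 smallest changes and any not called are given with every library's value; of other lists, the 2 largest and 2 smallest changes are named. Fits were tested on simulated data. Alternatives were DESeq2 1.42.0, limma-voom 3.58.1, DESeq2 size factors, total library size, no mitochondrial transcripts, no low-count filter, rounded deposited values, a replicate block and each library left out; replicates 1 and 2 alone and 3 and 4 alone were chosen after seeing the data. Same-numbered libraries correlated in their deviations from group means (r = 0.138, 0.433, 0.220 and 0.137). The best correlation of each REPTOR[ACT] library with a control library of another number was 0.011, 0.069, 0.168 and 0.221, higher for replicate 4. The block was taken as a pairing, although no label states what a shared number means. Promoter motifs and sequences were not analysed here.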

Additional observations from a re-analysis of the deposited data

Results flagged for a closer look

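Within a genotype, 4 of 82 groups of values held 1 library whose gap to the next exceeded Dixon's 95% limit for 4 values, and chance gives about 1 in 20. Nmd3 was at 24.5 CPM in control replicate 2, against 19.8 to 20.1 CPM in the other control libraries. CG8939 was also highest in control replicate 2, at 17.2 CPM against 14.5 to 14.99 CPM. CG7246 was at 7.04 CPM in REPTOR[ACT] replicate 1, against 5.92 to 6.07 CPM in the other REPTOR[ACT] libraries. CG12325 was at 11.5 CPM in the same library, against 9.74 to 9.83 CPM. In all 4 genes the REPTOR[ACT] libraries still lay above the control libraries.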

How the results depend on the processing

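The count of members called higher was 40 in every planned setting except 41 with the replicate block and 39 without control replicate 1, and 39 with replicates 3 and 4 only, while 0 were lower throughout. Past the fold limit it was 15 to 19, and the median log2 fold change was 0.80 to 0.90 over all settings (0.88 with the block). Of 738 comparisons of a single member's call with a setting, 727 kept direction and call, 6 lost the call, 5 gained it and 0 reversed. The calls that moved were CG12301, gained with the block and also without REPTOR[ACT] replicate 3 (adjusted p = 0.023), REPTOR[ACT] replicate 4 (0.044) or control replicate 2 (0.044) and with replicates 1 and 2 only (0.025); CG4364, as given in the report; CG7246, lost with replicates 1 and 2 only (0.053); and vito, lost with replicates 3 and 4 only. The block changed no other member's call. The other biogenesis factors called higher numbered 32 to 34, with 0 lower. Strand and multiple matching of reads could not be varied.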
